A study of Rattus norvegicus with 12 samples.

Results

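Hemoglobin transcripts and the genes that capture and break down hemoglobin were followed in the injured spinal cord of athymic nude (AN) and Sprague-Dawley (SD) rats. There were 8 genes proposed, and 7 could be matched to a row of the deposited tables, out of 17423 rows per table. The alpha globin members are Hba-a2 and LOC360504, the beta globin member is HBB, and the remaining members are Ahsp, Hp, Cd163 and Hmox1. Alas2 had no row that the gene names used here pair with it directly, and it was left out. The members were chosen by their role in making or clearing hemoglobin, and they were also selected on the FPKM ratios of these same tables, so every strain ratio of a member below is a description and carries no test.

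All 12 rats were adult females, 16-18 weeks old at injury, and all received a contusion of the spinal cord at 200 kdyn. The groups were acute SD and acute AN, harvested 1 week after injury, and chronic SD and chronic AN, harvested at 8 weeks, with 3 rats each. Chronic rats were therefore older at harvest, and age and time after injury cannot be told apart. SD rats (Hsd:SD) have a thymus, whereas AN rats (Hsd:RH-rnu/rnu) carry the nude allele on both chromosomes and lack a functional thymus. The strains also differ in the rest of their genomes, and the effects of the allele and of the strain background cannot be told apart. Blood was washed from the vessels with PBS before a 1-mm segment through the lesion was taken, and the groups hold no uninjured cord.

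Each table gave 1 FPKM per group (fragments per kilobase of transcript, scaled to the amount of sequencing), estimated over the 3 rats. The study states quartile normalization for its Cufflinks step, and does not state the scaling used in the strain comparison. Values of single rats were not analysed here, so the spread between rats is unknown, no error or test accompanies any value, and whether 1 rat carries a group's value was not tested. The study gives library totals, which were not used here, and the number of reads behind a single gene's value is unknown. A gene was counted as higher or lower where AN and SD differed by at least 2-fold, among genes above 0 in both groups with an FPKM of at least 1 in at least 1 of them. The log2FC is the log2 of AN over SD FPKM, so a negative value denotes enrichment in SD rats. The acute and chronic tables were normalized separately, and levels across time are set side by side as a description. The median log2FC of all genes was -0.0016 at 1 week and 0.0044 at 8 weeks. In this bulk tissue, fewer cells of a type and less RNA per cell cannot be told apart. The labelled tissue was checked on 2 neuronal genes with a row, Nefl and Snap25, which were detected in all 4 groups. Nefl FPKM was 205 in SD against 8.68 in AN rats at 1 week, and 170 against 41.4 at 8 weeks.

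Hemoglobin is a tetramer of alpha and beta chains that carries heme, and it is made almost wholly by immature red cells, which keep globin mRNA for a short time after they enter the blood as reticulocytes. Ahsp is a chaperone that binds free alpha chains in these cells. When red cells break down in a bleeding lesion, haptoglobin (Hp) binds the free hemoglobin, the macrophage receptor Cd163 takes up the complex, and heme oxygenase 1 (Hmox1) opens the heme ring and frees its iron.

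The alpha and beta chains come from different gene clusters. In the rat gene table (RefSeq, build GRCr8), gene 360504, whose number the name LOC360504 holds, now has the symbol Hba-a2, while Hba-a2 is an older symbol of the gene now called Hba-a1 (gene 25632). The 110 bases before the start sites of this pair are shown because both rows moved together in every comparison, and those of Hbbl1 (gene 100134871, the row LOC100134871) and Hbb are shown as beta examples. They read toward the start site on the minus strand, from chr10:15829139-15829248, chr10:15842581-15842690, chr1:167650236-167650345 and chr1:167663722-167663831, in that order. Capitals mark the CCAAT box, the TATAAA box and the CCACACCC box. A CCAAT box on the strand opposite to the one shown appears as ATTGG.
Hba-a2: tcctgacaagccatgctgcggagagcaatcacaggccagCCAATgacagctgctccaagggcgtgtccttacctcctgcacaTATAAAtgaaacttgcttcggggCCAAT
Hba-a1: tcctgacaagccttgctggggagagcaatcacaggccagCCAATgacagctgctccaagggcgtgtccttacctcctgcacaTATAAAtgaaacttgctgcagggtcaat
Hbbl1: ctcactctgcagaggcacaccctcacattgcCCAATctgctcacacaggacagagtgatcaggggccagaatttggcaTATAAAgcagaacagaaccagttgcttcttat
Hbb: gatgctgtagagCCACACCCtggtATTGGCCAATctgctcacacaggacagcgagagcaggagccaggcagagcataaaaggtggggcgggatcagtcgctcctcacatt

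Hba-a1 and Hba-a2 matched at 105 of 110 aligned bases (95.5%), and each matched the window of Hba-a3 less closely (85.2% and 83.5%). Among the beta genes, Hbbl1, Hbb-b1, Hbb-b2 and Hbb-bs matched each other at 90.3% to 96.4% of aligned positions, and Hbb matched these 4 at 66.4% to 68.1%. Both alpha windows hold CCAAT with its first base at -71 and TATAAA at -28, counted from the start site, and Hba-a2 holds a further CCAAT at -5. Hbbl1 holds CCAAT at -79 and TATAAA at -32, and Hbb holds CCACACCC at -98 and CCAAT on both strands, with first bases at -86 and -81 where the copies lie end to end. Of all 33469 rat promoters of 300 bases in the reference, 37.5% hold CCAAT, 14.2% TATAAA and 3.22% CCACACCC on either strand. AGATAA, the letters bound by GATA factors, was found in 11.6% of promoters and in none of the 4 windows shown. TGANNNNGC, a loose form of the element bound by NRF2, was found in 40.5% of promoters and in the windows shown of Hba-a1, with its first base at -11, and Hbb, at -24, on the opposite strand.

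The strains differed by at least 2-fold in all 7 members in the acute phase and in 4 of them in the chronic phase. Hba-a2, LOC360504, HBB and Ahsp were enriched in SD rats at 1 week, while Hp, Cd163 and Hmox1 were enriched in AN rats. At 8 weeks, Hba-a2 and LOC360504 had turned over and stood more than 4-fold higher in AN rats, Hp and Cd163 were still higher in AN rats, and HBB, Ahsp and Hmox1 lay within 2-fold. Over all 11326 genes compared in the acute phase, 2.07% were higher and 11.4% lower in AN rats. Over the 11429 genes compared in the chronic phase, 2.27% were higher and 6.33% lower. Since the rule used these ratios, nothing is read from the members' counts against these shares.

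**Figure D1:**
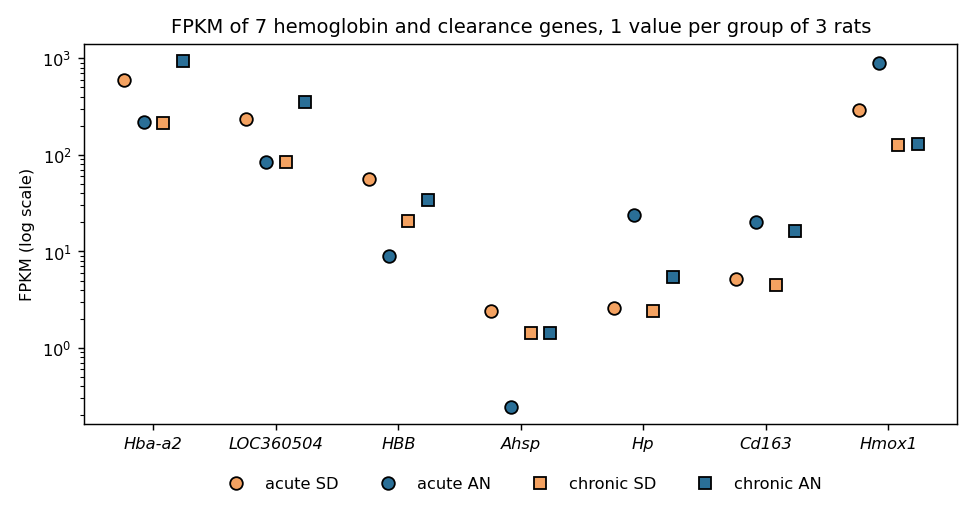
FPKM (log scale) of the 7 genes in acute SD, acute AN, chronic SD and chronic AN rats, with 1 point per group of 3 rats and no error available. The 3 globins are lower in acute AN than in acute SD rats and highest (Hba-a2 at 934 and LOC360504 at 353) or second highest (HBB at 34.0) in chronic AN rats, while Hp and Hmox1 are highest in acute AN rats at 23.9 and 907.

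Hba-a2 (RGD:2782, RN4 chromosome 10, 15584360 to 15585215) encodes an alpha chain. Its FPKM was 594.8 in SD against 219.6 in AN rats at 1 week, and 214.95 against 934 at 8 weeks. The low values, in acute AN and chronic SD rats, were nearly equal, and the high values were in the opposite strain at each time. It was 2.71-fold lower in acute AN rats (log2FC -1.44) and 4.35-fold higher in the chronic phase (log2FC 2.12).

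LOC360504 (RGD:1359364, chromosome 10, 15570930 to 15571773), the other alpha row, had an FPKM of 235 in SD against 84.2 in AN rats at 1 week, and 84.7 against 353 at 8 weeks. Its order of groups differed from that of Hba-a2 only in the nearly equal low pair. The log2FC was -1.48 at 1 week and 2.06 at 8 weeks. LOC360504 held the same proportion to Hba-a2 throughout, with an FPKM ratio of 0.395 in SD against 0.383 in AN rats at 1 week, and 0.394 against 0.378 at 8 weeks. How the mapping shared reads between these related genes was not tested, so each row's own value is uncertain.

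HBB (RGD:1595848, chromosome 1, 161590671 to 161598127) encodes a beta chain, and its locus of 7457 bases is longer than those of the other globin rows. FPKM was 56.6 in SD against 9.07 in AN rats at 1 week, and 20.5 against 34.0 at 8 weeks. It was 6.24-fold lower in AN rats at 1 week (log2FC -2.64), a larger ratio than in the alpha genes, and 1.66-fold higher at 8 weeks (log2FC 0.73), a smaller one. A second row with the symbol HBB (RGD:2290038, chromosome 1, 161584858 to 161586234) showed 91.2, 19.6, 33.2 and 71.0 in the same order of groups, with a log2FC of -2.22 and 1.10. LOC100134871 (RGD:1597422), a further beta row, had 35.2, 5.14, 12.0 and 18.4, with a log2FC of -2.77 and 0.62. All beta rows with a symbol therefore had a larger acute and a smaller chronic ratio than the alpha rows.

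Another beta row, RGD:2783 (chromosome 1, 161618782 to 161620193), starts 20654 bases beyond the end of the HBB member with no other row between them. No symbol was paired with it here, and it was singled out after its values were seen. Its FPKM was 274 in SD against 182 in AN rats at 1 week, and 93.4 against 654 at 8 weeks. This row carried most of the signal of the beta cluster. It was 1.5-fold lower in acute AN rats (log2FC -0.59) and 7.01-fold higher in the chronic phase (log2FC 2.81).

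The makeup of the beta cluster differed between the strains and was nearly the same at both times. RGD:2783 held 60.0% of the summed FPKM of the 4 beta rows in acute SD and 58.7% in chronic SD rats, but 84.3% in acute AN and 84.1% in chronic AN rats. The HBB member held 12.4% and 12.9% in SD rats and 4.2% and 4.37% in AN rats. The second HBB row held 20.0% and 20.8% in SD rats and 9.08% and 9.13% in AN rats, and LOC100134871 held 7.70% and 7.52% in SD rats and 2.38% and 2.36% in AN rats. The difference between strains in each share was thus larger than its difference between times within a strain, although without values of single rats it could not be tested. How reads were shared between these related rows in each strain was not tested.

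**Figure D2:**
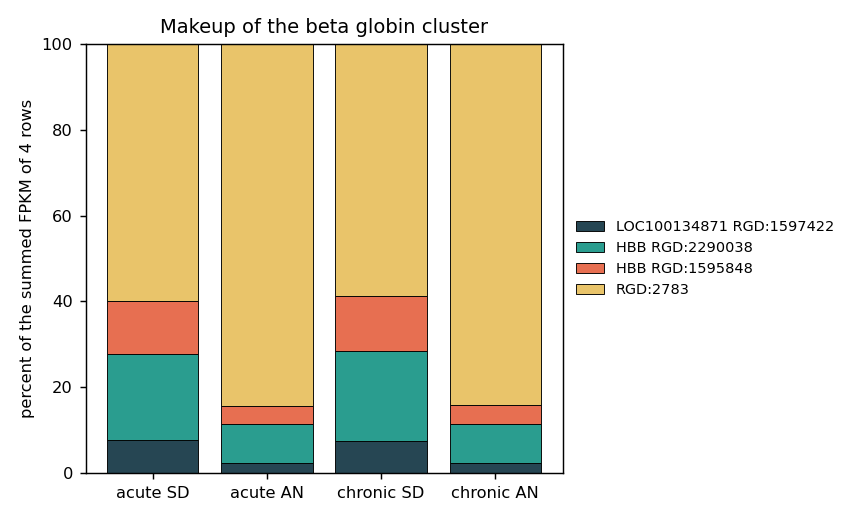
Percent of the summed FPKM of the 4 beta globin rows held by each row in the 4 groups, as stacked bars that start at 0. RGD:2783 takes 60.0% and 58.7% in SD and 84.3% and 84.1% in AN rats at 1 and 8 weeks.

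Summed over the 4 rows, the beta signal was close to the alpha signal in its strain ratios. The beta sum was 457 in SD against 216 in AN rats at 1 week, and 159 against 778 at 8 weeks, with a log2FC of -1.08 and 2.29. The alpha sum of Hba-a2 and LOC360504 was 830, 304, 300 and 1288, with a log2FC of -1.45 and 2.10. With the 3 beta rows that have a symbol, the sum was 183, 33.8, 65.6 and 123, with a log2FC of -2.44 and 0.91. The ratio of the alpha sum to the sum of 4 beta rows ranged from 1.41 in acute AN to 1.88 in chronic SD rats. Of the summed FPKM of all genes, these 6 rows made up 0.210% in SD against 0.0795% in AN rats at 1 week, and 0.0746% against 0.320% at 8 weeks. The combined globin signal was 2.48-fold lower in AN rats at 1 week and 4.50-fold higher at 8 weeks.

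The other rows of the alpha and beta clusters had little signal, apart from RGD:1359209 (chromosome 10, 15558815 to 15559543), again without a symbol here and singled out after its values were seen. Its FPKM was 10.2 in SD against 4.29 in AN rats at 1 week, and 1.77 against 16.0 at 8 weeks (log2FC -1.25 and 3.18). The embryonic zeta chain Hbz (RGD:1307486) was listed at 0 in all 4 groups. Of the 13 rows in the clusters, 6 had an FPKM of at most 0.25 in every group, Hbz among them.

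Ahsp (RGD:1306725, chromosome 1, 187560690 to 187561662), which the supplementary gene names call Eraf, was low throughout. FPKM was 2.43 in SD against 0.244 in AN rats at 1 week, and 1.43 against 1.43 at 8 weeks. The acute AN value stood apart from the other 3. It was 9.97-fold lower in acute AN rats (log2FC -3.32) and nearly equal in the chronic phase (log2FC -0.0056). With 1 FPKM added to each value, the acute log2FC was -1.46. Per 1000 units of alpha globin FPKM, Ahsp was 2.93 in acute SD and 4.78 in chronic SD rats, against 0.803 in acute AN and 1.11 in chronic AN rats. Ahsp was thus lower in AN rats relative to the alpha genes at both times.

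Slc4a1 (RGD:3710), the anion exchanger band 3 of the red cell membrane, was below the FPKM floor. Its FPKM was 0.913 in SD against 0.0891 in AN rats at 1 week, and 0.381 against 0.425 at 8 weeks. Its order of groups in each phase was that of the globins, at a level near detection (log2FC -3.36 and 0.16).

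The globin rows were closer to each other in the difference between phases than in their separate ratios. The acute minus chronic log2FC was -3.56 for Hba-a2, -3.54 for LOC360504, -3.37 for HBB and -3.31 for Ahsp. The value of Ahsp depended on its low FPKM, and was -2.87 with 0.1 FPKM added to each group and -1.46 with 1 FPKM added, while the 7 globin cluster rows stayed between -3.70 and -3.14 with 1 FPKM added. Among the 7 cluster rows compared in both phases, it ran from -3.56 to -3.32 except for RGD:1359209 at -4.43, although their acute log2FC ran from -2.77 to -0.59 and their chronic log2FC from 0.62 to 3.18. Of the 11108 genes compared in both phases, 21 lay at -3 or below, and these included all 7 cluster rows and Ahsp. In the background, 0.828% of genes had a difference of -2 or below and 0.117% had 2 or above. Genes at least 2-fold lower in acute AN and at least 2-fold higher in chronic AN rats made up 0.099%, or 11 genes, among them Hba-a2 and LOC360504. The phase difference is built from the ratios that chose the members, so it is given as a description.

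**Figure D3:**
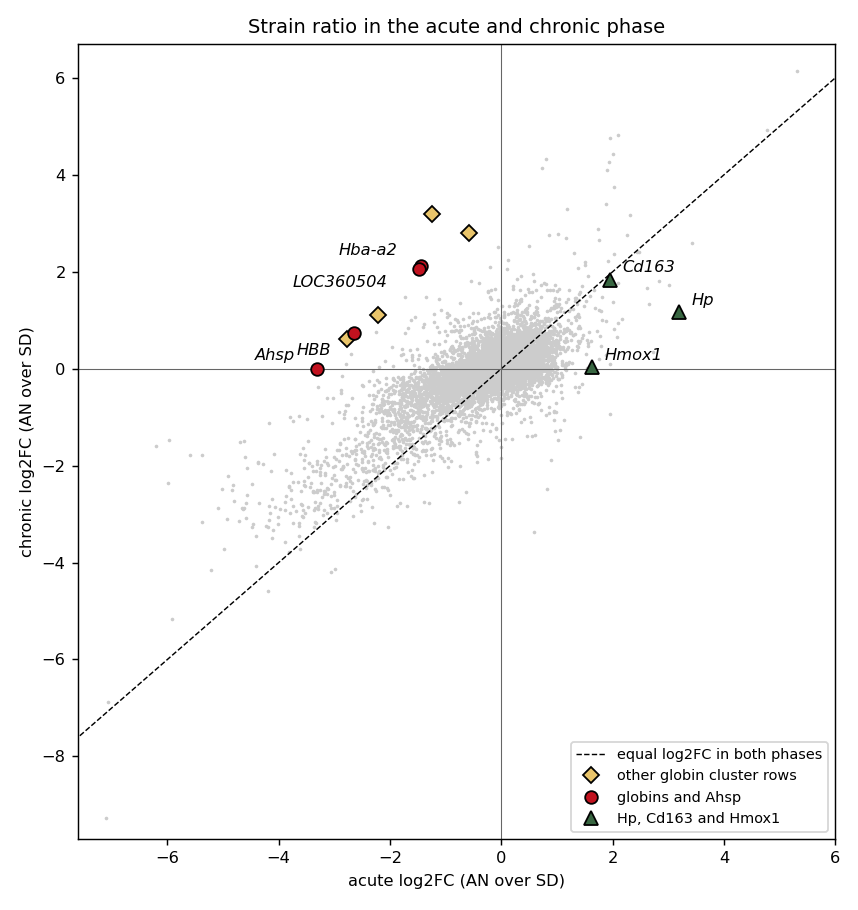
Chronic log2FC against acute log2FC (AN over SD) for the 11108 genes compared in both phases (grey), with the globins and Ahsp as circles, other globin cluster rows as diamonds and Hp, Cd163 and Hmox1 as triangles. The globin points lie far above the line of equal log2FC, 3.3 to 3.6 log2 units from it except for RGD:1359209 at 4.43, while Cd163 lies close to it at 1.95 and 1.84.

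Set side by side within a strain, the globins moved in opposite directions over time. From 1 to 8 weeks, FPKM in SD rats fell by 1.47 on the log2 scale for both Hba-a2 and LOC360504 and by 1.46 for HBB. Over the same interval in AN rats the log2 ratio was 2.09 for Hba-a2, 2.07 for LOC360504 and 1.91 for HBB. Ahsp had a log2 ratio of -0.76 in SD rats, within 2-fold, and of 2.55 in AN rats, the largest increase among the members. In SD rats 3.58% of the 11479 genes were at least 2-fold higher and 3.82% lower at 8 weeks. In AN rats the shares were 12.7% and 6.37% of 11233 genes, so an increase over time was more frequent in AN rats across all genes.

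**Figure D4:**
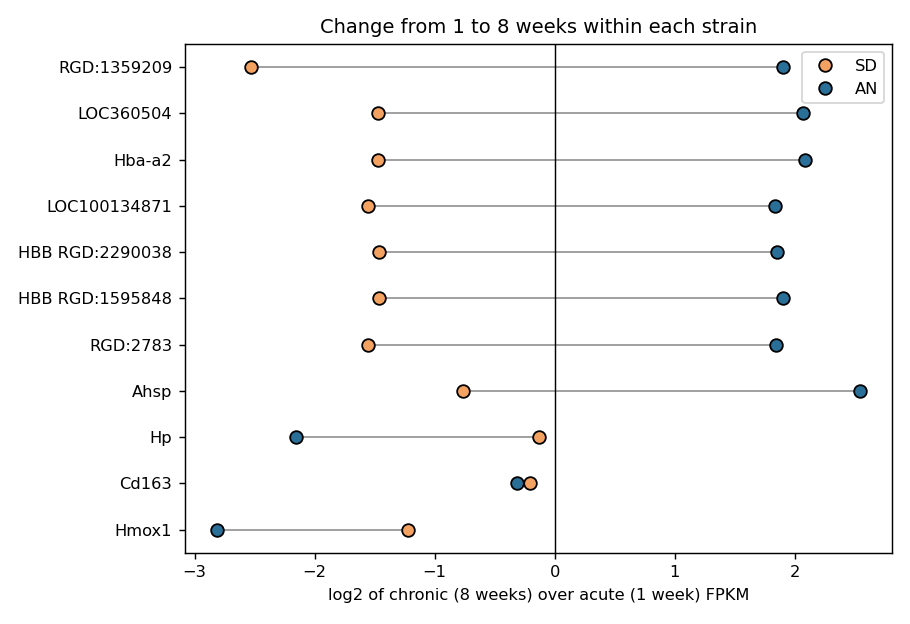
Log2 of chronic over acute FPKM in SD (orange) and AN (blue) rats for the members and other globin cluster rows, joined by a line for each row. All globin rows lie below 0 in SD (-2.53 to -1.46) and above 0 in AN rats (1.84 to 2.09), Hp and Hmox1 lie further below 0 in AN than in SD rats, and Cd163 is near 0 in both.

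Red cell genes above the FPKM floor had the same direction in both phases. The red cell list, which like the other gene lists was chosen with results of these data known, had 9 of 28 symbols paired with a row, and 6 were compared. Of these, 4 were lower in AN rats at 1 week and 2 at 8 weeks, and none was higher, with a median log2FC of -1.26 and -0.67. The spectrin chain Sptb had a log2FC of -2.14 and -0.70, and the ankyrin Ank1 had -1.42 and -0.63. Carbonic anhydrase Car2, which oligodendrocytes also make, had -1.10 and -1.65. In none of the 6 was the acute minus chronic log2FC at -2 or below, a value that 0.828% of all genes reached. All 6 compared rows of the globin list reached it, Ahsp only without 1 FPKM added (-1.46 with it). That list holds members chosen on these same ratios, so its count follows from the choice and nothing is read from the contrast. Slc4a1 is on the red cell list too and was left out of the comparison only by the FPKM floor, and its acute minus chronic log2FC of -3.52 lay within the range of the globin rows, but was -0.86 with 1 FPKM added to each group. Most defining red cell markers had no symbol paired here. The heme synthesis list had 3 of 13 symbols named (Slc25a38, Slc25a39 and Tmem14c), with none past 2-fold in either phase.

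The hemoglobin clearance genes were all higher in AN rats at 1 week, and they differed among themselves at 8 weeks. Hp (RGD:2825, chromosome 19, 39443016 to 39447566) had an FPKM of 2.62 in SD against 23.9 in AN rats at 1 week, and 2.39 against 5.38 at 8 weeks. The SD values were nearly equal at both times, and the acute AN value stood far above the others. It was 9.15-fold higher in acute AN rats (log2FC 3.19), the 7th highest ratio of 11326 genes, and 2.25-fold higher in the chronic phase (log2FC 1.17). Its acute minus chronic log2FC of 2.03 was the 12th highest of 11108 genes, opposite in sign to that of the globins.

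Cd163 (RGD:1310382, chromosome 4, 160394833 to 160428208) had an FPKM of 5.19 in SD against 20.1 in AN rats at 1 week, and 4.52 against 16.2 at 8 weeks. Its strain ratio was almost the same in both phases, at 3.87-fold (log2FC 1.95) and 3.58-fold (log2FC 1.84). Within a strain its log2 ratio over time was small, at -0.20 in SD and -0.31 in AN rats. Hp exceeded Cd163 only in acute AN rats, with an FPKM ratio of 1.19 there against 0.503 and 0.529 in SD rats at 1 and 8 weeks and 0.333 in AN rats at 8 weeks.

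Hmox1 (RGD:2806, chromosome 19, 13963139 to 13969960) was the most abundant clearance gene. Its FPKM was 293 in SD against 907 in AN rats at 1 week, and 126 against 129 at 8 weeks. The strains differed 3.09-fold in the acute phase (log2FC 1.63) and were nearly equal in the chronic phase (log2FC 0.03). From 1 to 8 weeks the log2 ratio was -1.22 in SD and -2.81 in AN rats. Thus Hp and Hmox1 were highest in the acute AN group, in which LOC360504, HBB and Ahsp were lowest and Hba-a2 was close to its lowest value.

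Macrophage genes also moved with the strains, and their part in the Cd163 and Hmox1 ratios was not tested. The macrophage list had 5 of 15 symbols named, of which 4 were higher in AN rats at 1 week and 2 at 8 weeks. Its summed FPKM was 212 in SD against 448 in AN rats at 1 week, and 132 against 183 at 8 weeks. Cd5l, a secreted protein of tissue macrophages, had the largest ratios (log2FC 2.44 and 2.40), and like Cd163 it held them at both times. The integrin chain Itgam had a log2FC of 1.12 and 0.41, the LPS co-receptor Cd14 had 1.17 and -0.03, and the mannose receptor Mrc1 had 0.95 and 1.24. The ratio of Cd14 was lost at 8 weeks, as was that of Hmox1, while that of Mrc1 was not. All macrophage ratios in the acute phase were smaller than that of Cd163 except for Cd5l.

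Liver normally supplies Hp to plasma, and 2 of 14 genes of the liver plasma protein list were named. Serpina1 FPKM was 1.13 in SD against 0.257 in AN rats at 1 week, and 2.76 against 1.90 at 8 weeks. Itih3 had 91.5, 12.1, 121 and 38.0 in that order. Both were lower in acute AN rats (log2FC -2.14 and -2.91), with Serpina1 close to the FPKM floor. The sources of the Hp, Serpina1 and Itih3 transcripts in this tissue were not tested. The 4 defining liver markers and the 6 defining neutrophil markers had no symbol paired here. The neutrophil list had 1 named gene, the receptor Csf3r, with a log2FC of 0.60 and -0.14.

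The platelet list had 2 of 10 symbols named. The chemokine Pf4, abundant in platelets, had an FPKM of 292 in SD against 832 in AN rats at 1 week, and 124 against 569 at 8 weeks. It was higher in AN rats in both phases (log2FC 1.51 and 2.20). Treml1, a receptor of platelet granules, was lower in AN rats in both phases (log2FC -3.05 and -4.19), so the 2 named genes went opposite ways. Which cells made the Pf4 transcripts was not tested. The part of blood left in the vessels in the globin ratios was not tested. None of the 12 endothelial genes of the list was paired with a symbol here.

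Genes of iron handling and of the response to heme had smaller strain ratios than Hmox1 in the acute phase where they could be named. The iron list had 3 of 23 symbols named. The transferrin receptor Tfrc had an FPKM of 53.2 in SD against 87.7 in AN rats at 1 week, and 26.5 against 17.8 at 8 weeks (log2FC 0.72 and -0.57), within 2-fold in both phases. The metal importer Slc39a14 was higher in AN rats in the acute phase only by this threshold (log2FC 1.27 and 0.13). Slc11a1, which exports metal from the phagosome, had a log2FC of 0.94 and 1.29. Among targets of the factors NRF2 and BACH1, which also govern Hmox1, the named genes were Nqo1 (log2FC -0.71 and 0.03) and Slc7a11 (log2FC -0.72 and 0.18). Both were below Hmox1 in their acute ratio and of opposite sign.

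The named genes whose pair of acute and chronic log2FC was nearest to each of 4 members were found among 3319 named genes whose FPKM reached 1 in all groups. The nearest to Hba-a2 was LOC360504, at a distance of 0.073, followed at some distance by Dbp at 0.65 and Per3 at 0.75. Nearest to Hmox1 were Il33 at 0.10, Cxcl1 at 0.21 and F13a1 at 0.29. Nearest to Cd163 were Scimp at 0.36, LOC690955 at 0.39 and Adam8 at 0.39, and nearest to Hp were Galnt12 at 0.76, Il20rb at 1.20 and Ccr1 at 1.21. Hp therefore had no close neighbour among the named genes. These distances compare 4 group values with each other and say nothing of shared control.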

How the data were processed

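Polyadenylated RNA from the lesion segment of 12 rats was sequenced. Per the labels and the study's methods, the authors trimmed reads with cutadapt, checked them with FastQC, mapped them to RN4 with TopHat 1.5.0, and compared strains with Cuffdiff, with 0.0.6 given as the Cufflinks version in the submitters' processing notes. The authors deposited 1 table per phase, with FPKM per group of 3 rats and columns of their own comparison (log2 fold change, test statistic, P, Q and call), none of which were used. The study's methods state quartile normalization for Cufflinks. Tables were normalized separately, and 0 columns of single rats were used, so no test was run and no SD could be given. Library totals were not used, and the number of reads behind each gene's value is unknown.

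Ratios of FPKM, ranks and sums were computed in Python 3.11.15 with pandas 2.3.3 and numpy 2.4.6, without a pseudocount, after tests on simulated data. Calls used a 2-fold line and an FPKM floor of 1. Symbols came from direct pairs of identifiers only, for 4610 of 17423 rows (26.5%): 1803 from the study's gene table and 2807 from the rat gene table (GRCr8). Locus starts were shifted to 1-based positions. Sequences are from RefSeq (GRCr8), and pairs were aligned globally with Biopython.

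Members and the 12 gene lists were chosen with earlier results of these data known. Genes were named if they were members or globins, defining markers, up to 5 per list past the 2-fold line, or the 3 nearest to a member. Alternatives were other folds, floors, pseudocounts and scalings.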

Additional observations from a re-analysis of the deposited data

Results flagged for a closer look

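Hba-a2 and LOC360504 were marked because their strain ratio took opposite directions at the 2 times after injury. The log2FC (AN over SD) of Hba-a2 was -1.44 at 1 week and 2.12 at 8 weeks, and that of LOC360504 was -1.48 and 2.06. The difference between phases was not tested, since only 1 value per group was used.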

How the results depend on the processing

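Centring on the median of all genes, scaling to summed FPKM with or without the globin rows, and adding 0.1 FPKM left all 7 members on the same side of the 2-fold line in both phases. Adding 1 FPKM moved the chronic log2FC of Hp to 0.91, within 2-fold, and the other 13 ratios kept their side. Adding 1 FPKM also moved the acute minus chronic log2FC of Ahsp to -1.46 and of Hp to 1.88, both inside a size of 2, in a check chosen after seeing the data. Replacing HBB by the sum of the 4 beta rows, an alternative chosen after seeing the data, moved its chronic log2FC to 2.29, past the line. With a 3-fold line, 2 members in place of 4 were lower in AN rats in the acute phase, and 3 in place of 4 were higher in the chronic phase, where a 1.5-fold line gave 5. Counts over all genes depended on the line and the floor. With a 1.5-fold line, a 3-fold line, a floor of 0.1 and a floor of 5 FPKM, in that order, genes higher in acute AN rats numbered 851, 67, 366 and 147 (234 as reported), and genes lower numbered 2041, 691, 1960 and 708 (1291). For the chronic phase they were 723, 95, 451 and 157 higher (260), and 1215, 407, 1142 and 365 lower (723). Genes past the line in opposite directions numbered 15 in the reported setting, 77 with a 1.5-fold line and 0 with a 3-fold line. No ratio past the 2-fold line changed direction. The chronic log2FC of Hmox1, reported as 0.03, was -0.03 when scaled to summed FPKM, with or without the globin rows. Leaving out each rat in turn was not run, because values of single rats were not analysed here. The number of reads behind low values, such as those of Ahsp, is unknown.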
